A study of Mus musculus with 6 samples.

Results

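The genes described here are 10 markers of the epicardium, the mesothelial sheet that covers the outer surface of the heart. They were chosen by name: Upk1b, Upk3b, Msln, Krt19, Lrrn4 and Podxl as markers of mesothelial surface and cytoskeleton, and Wt1, Tbx18, Tcf21 and Bnc1 as transcription factors. All 10 were found among the 14860 genes that carried exactly 1 symbol on the array, each with a single probe set. RNA came from mouse hearts dissected at E13.5, in mid-gestation, with 3 arrays of Mesp1 Cre/+; Hic2 FL/FL hearts, the conditional knockout, and 3 arrays of Hic2 FL/FL hearts, the controls. Every array held a pool of 4 to 6 hearts. Both genotypes carried floxed Hic2, which codes for a zinc finger repressor, and the knockout also carried 1 Mesp1-Cre allele, a recombinase active in the early mesoderm. No group carried Cre alone, so removal of Hic2 and the presence of Cre cannot be told apart.

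The epicardium arises from the proepicardium, a cluster of mesodermal cells that spreads over the myocardium as a flat epithelium. It keeps the keratins and surface glycoproteins of a mesothelium, while transcription factors such as Wt1, Tbx18 and Tcf21 mark it and the progenitors it releases. Some of its cells lose their epithelial character, a process called EMT (epithelial to mesenchymal transition), and enter the heart wall as fibroblasts and mural cells. The sheet also exchanges growth factors and retinoic acid signals with the myocardium beneath it.

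Values were log2 signals made with RMA (robust multi-array average), a method that brings all arrays to a shared distribution. The array medians lay between 7.41 and 7.48, and the 10 markers lay between 9.02 and 12.01 on all arrays. The heart muscle genes Tnnt2 and Myl2, which code for a troponin and a myosin light chain, stood at 13.72 to 13.92, near the highest value of the table, 14.50. Hic2 read 8.07, 7.96 and 8.04 in the knockout and 8.10, 8.26 and 8.14 in the controls, a difference of -0.14 ± 0.07 (SE) that did not pass (limma adjusted p = 0.314). The position of its probes relative to the floxed part is unknown here, and probes outside that part would not check the labels. The Y-linked Eif2s3y read 4.36 on control replicate 3 and 8.51 to 9.64 on the other arrays, so that pool stood apart from the rest.

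Promoter windows are shown for 3 markers. Lrrn4 and Upk3b were the only mesothelial markers with a matched window, and the transcription factor Tbx18 was the marker that read lower in the knockout. RefSeq windows on GRCm38.p6 were matched for 5 of the 10 markers, these 3 and Tcf21 and Bnc1. Each sequence is the 250 bases before the RefSeq start, 5′ to 3′ on the gene's strand, in lower case, with motif matches in capitals. The positions are chr2:132880863-132881112 on the minus strand for Lrrn4, chr5:136038246-136038495 on the plus strand for Upk3b and chr9:87731261-87731510 on the minus strand for Tbx18.
Lrrn4: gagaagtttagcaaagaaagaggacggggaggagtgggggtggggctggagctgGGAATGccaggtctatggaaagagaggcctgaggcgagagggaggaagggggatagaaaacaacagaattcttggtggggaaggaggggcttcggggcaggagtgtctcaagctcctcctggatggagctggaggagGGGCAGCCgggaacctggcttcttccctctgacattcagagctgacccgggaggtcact
Upk3b: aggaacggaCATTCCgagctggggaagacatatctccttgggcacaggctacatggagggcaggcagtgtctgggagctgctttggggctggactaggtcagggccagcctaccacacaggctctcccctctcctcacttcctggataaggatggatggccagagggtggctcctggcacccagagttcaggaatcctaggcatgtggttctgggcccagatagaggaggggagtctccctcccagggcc
Tbx18: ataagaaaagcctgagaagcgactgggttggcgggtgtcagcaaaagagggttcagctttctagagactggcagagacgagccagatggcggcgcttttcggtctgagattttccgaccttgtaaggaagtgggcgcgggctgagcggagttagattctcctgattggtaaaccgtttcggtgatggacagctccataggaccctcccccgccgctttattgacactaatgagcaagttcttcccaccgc

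The letters searched on both strands were GGGCANCC, a form of the site reported for HIC1, the closest relative of HIC2, GCGNGGGCG for WT1 and related zinc fingers, GGAATG for TEAD factors and GGTGTGA for T-box factors. The first 2 share the letters GGGC and could overlap, but no 2 matches overlapped in these windows. Lrrn4 held GGGCAGCC at -59 to -52 relative to its start and GGAATG at -196 to -191. Upk3b held the TEAD letters at -241 to -236 on the opposite strand, written CATTCC. None of the letters occurred in the windows of Tbx18, Tcf21 and Bnc1. Among all 32851 windows of this length, GGGCANCC occurred in 4.53%, GCGNGGGCG in 4.70%, GGAATG in 12.6% and GGTGTGA in 3.33%. G and C made up 59.2% of the Lrrn4 window, 60.8% of the Upk3b window and 54.0% of the Tbx18 window, against a median of 52.4% over all windows. A match of letters is a description and does not show binding.

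The mesothelial markers were all higher in knockout hearts, and 2 of the 6 rose past the threshold, an adjusted p under 0.05 over all genes in a limma fit. Msln, which codes for mesothelin, a surface protein of mesothelial cells, rose by 0.57 on the log2 scale, and Upk1b, a tetraspanin of the uroplakin plaques of urothelium that mesothelia also make, rose by 0.41. The other 4 were higher by 0.17 to 0.52 without passing. Over all 14860 genes, 0.336% passed as higher and 0.222% as lower, 0.559% in all. In a whole heart, a larger number of epicardial cells and more RNA per epicardial cell cannot be told apart. 

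Msln (probe set 6854431) stood at 9.71, 9.80 and 9.71 in the knockout pools, against 9.26, 9.22 and 9.02 in the control pools. The lowest knockout value lay 0.45 above the highest control value, the widest gap of the 10 markers. Its change was 0.57 ± 0.08 (SE), or 1.49-fold, with a 95% confidence interval from 0.39 to 0.75 (limma adjusted p = 0.0418).

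Upk1b (probe set 6845587) stood at 10.68, 10.72 and 10.72 in the knockout, against 10.39, 10.28 and 10.23 in the controls. The knockout arrays lay within an SD of 0.02 and all above the controls, whose SD was 0.08. The change was 0.41 ± 0.06 (SE), or 1.33-fold, with a 95% confidence interval from 0.26 to 0.55 (limma adjusted p = 0.0481). Both calls were lost when any 1 of the 6 arrays was left out, with limma adjusted p between 0.0813 and 0.130 for Msln and between 0.0911 and 0.173 for Upk1b. They were also lost with every row of the array in the fit, unnamed ones included (adjusted p = 0.183 for each). A fit with replicate number as a block lost both as well (limma adjusted p = 0.0754 for Msln and 0.119 for Upk1b). In the refits with 1 array less the changes themselves lay between 0.50 and 0.62 for Msln and between 0.37 and 0.45 for Upk1b, lowest for both without control replicate 3, the pool with the low Eif2s3y value. The count of genes past the threshold fell to between 3 and 28, against 83 with all arrays.

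Krt19, a keratin of simple epithelia and mesothelia, had a difference second in size to that of Msln, and the widest spread among the mesothelial markers. Its probe set, 6791406, read 10.49, 10.17 and 10.16 in the knockout and 9.98, 9.65 and 9.63 in the controls. In both genotypes replicate 1 was the highest, and the groups still did not overlap. The difference was 0.52 ± 0.13 (SE), with a 95% confidence interval from 0.23 to 0.81, and it did not pass (limma adjusted p = 0.128). Of 11 genes of other epithelia, control replicate 1 was the highest control array for 7 and the lowest for 1. Its mean over the list was 6.77, against 6.52 on both other control arrays. Knockout replicate 1 was the highest knockout array for 0 of these 11 genes and the lowest for 7. Its list mean was 6.39, against 6.48 and 6.57 on the other knockout arrays. The widest gaps of control replicate 1 above the other controls, named after their values were seen, were in 2 of the 11 genes. Epcam, an epithelial adhesion molecule, was 7.57 on control replicate 1 against 6.50 to 6.52 on the other control arrays, and Krt5, a keratin of stratified epithelia, was 7.59 against 6.51 to 6.78. With 1 array left out the Krt19 difference lay between 0.41, without knockout replicate 1, and 0.63, without control replicate 1 (limma adjusted p between 0.120 and 0.285).

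The remaining mesothelial markers differed by smaller amounts. Upk3b, another uroplakin, read 12.01, 11.94 and 11.87 in the knockout, against 11.85, 11.78 and 11.69 in the controls. Lrrn4, a leucine-rich repeat membrane protein, read 10.41, 10.21 and 10.33 in the knockout, against 10.16, 10.10 and 10.11 in the controls. Podxl, the sialomucin podocalyxin of podocytes, mesothelium and endothelium, read 11.12, 10.92 and 11.04 in the knockout, against 10.82, 10.78 and 10.89 in the controls. In each of the 3 genes the groups did not overlap, but the gap between them was only 0.02 for Upk3b, 0.05 for Lrrn4 and 0.04 for Podxl. The differences were 0.17 ± 0.07 for Upk3b, 0.19 ± 0.07 for Lrrn4 and 0.20 ± 0.07 for Podxl (SE), with limma adjusted p of 0.270, 0.211 and 0.215 in that order. With array weights the Lrrn4 difference was 0.11.

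**Figure D1:**
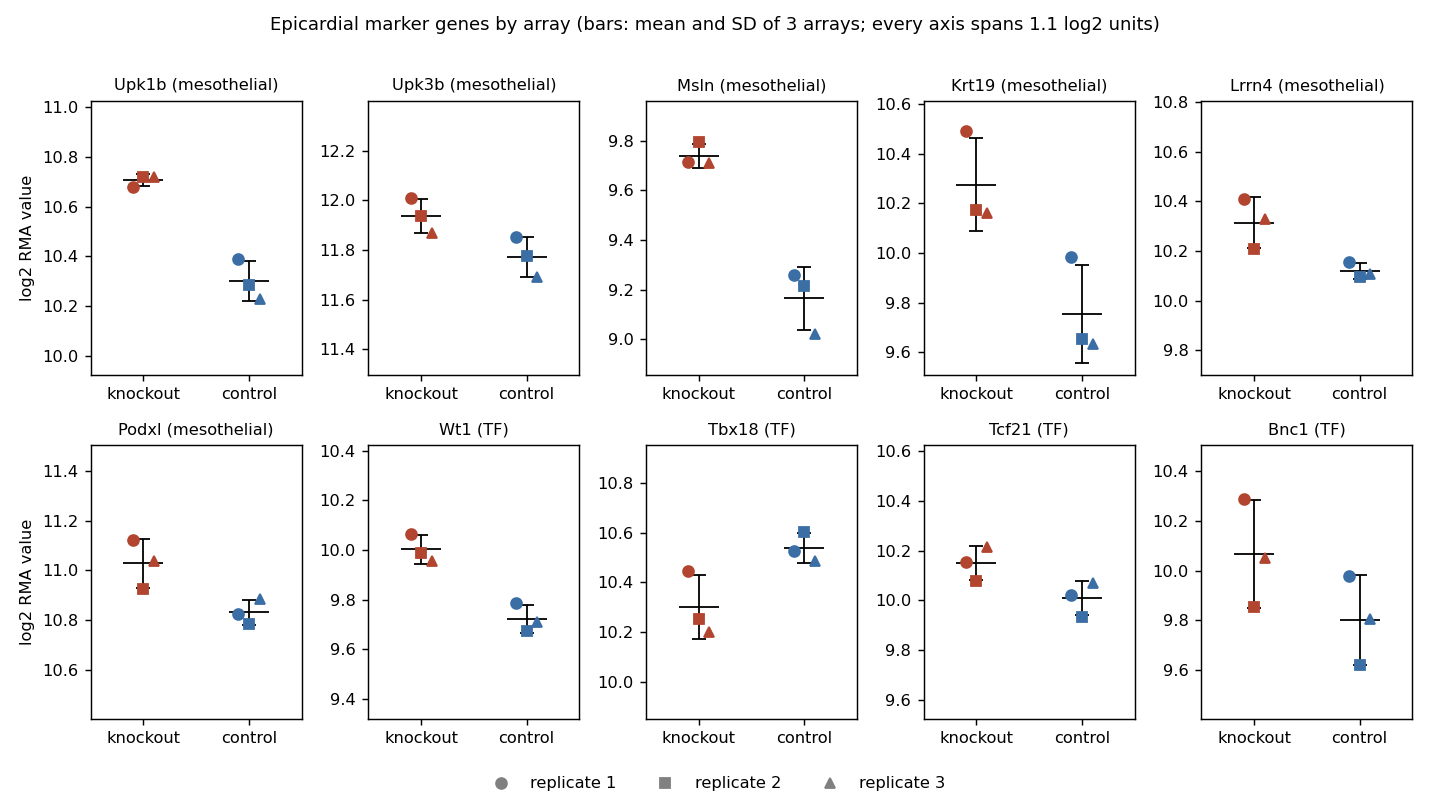
Log2 RMA value of each marker on the 3 knockout and 3 control arrays, with the mean and SD as black bars and 1.1 log2 units on every vertical axis. Msln (9.71 to 9.80 in the knockout, 9.02 to 9.26 in the controls) and Upk1b show the clearest separation, Tbx18 is the marker whose knockout values lie below the controls, and the Bnc1 groups overlap.

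The 4 transcription factors differed in both directions and none passed over all genes. Wt1, Tcf21 and Bnc1 were higher in the knockout by 0.14 to 0.28, and Tbx18 was lower by 0.24. At an unadjusted p under 0.05, which 17.5% of all genes reached (10.7% higher, 6.8% lower), Wt1 (higher) and Tbx18 (lower) counted among them.

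Wt1, the Wilms tumour zinc finger factor needed for epicardial EMT (probe set 6879691), read 10.07, 9.99 and 9.95 in the knockout, against 9.79, 9.68 and 9.71 in the controls. All knockout values exceeded all control values, with a gap of 0.17. The difference was 0.28 ± 0.06 (SE), or 1.21-fold, with a 95% confidence interval from 0.14 to 0.42 (limma adjusted p = 0.106).

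Tbx18, a T-box repressor expressed in the proepicardium, epicardium and sinus horn (probe set 6997574), read 10.45, 10.25 and 10.20 in the knockout, against 10.53, 10.60 and 10.48 in the controls. The groups did not overlap, although knockout replicate 1 lay just 0.04 below the lowest control. The difference was -0.24 ± 0.08 (SE), with a 95% confidence interval from -0.42 to -0.05 (limma adjusted p = 0.197). With 1 array left out it lay between -0.31, without knockout replicate 1, and -0.19, without knockout replicate 3 (limma adjusted p between 0.116 and 0.445).

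Tcf21, a helix-loop-helix factor of the cells that become cardiac fibroblasts, read 10.16, 10.08 and 10.21 in the knockout, against 10.02, 9.93 and 10.07 in the controls. Its groups were separated by 0.0056, and the difference of 0.14 ± 0.07 (SE) had a 95% confidence interval from -0.01 to 0.29 (limma adjusted p = 0.323). Bnc1, the zinc finger protein basonuclin of epithelia and mesothelia, read 10.29, 9.85 and 10.05 in the knockout, against 9.98, 9.62 and 9.81 in the controls. It was the 1 marker of the 10 whose groups overlapped, with a difference of 0.26 ± 0.13 (SE) and a 95% confidence interval from -0.04 to 0.57 (limma adjusted p = 0.342). The Bnc1 difference was 0.15 without knockout replicate 1, 0.17 without control replicate 2 and 0.06 with array weights, and that of Tcf21 was 0.09 with array weights. Replicate 1 was the highest Bnc1 array in both genotypes.

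**Figure D2:**
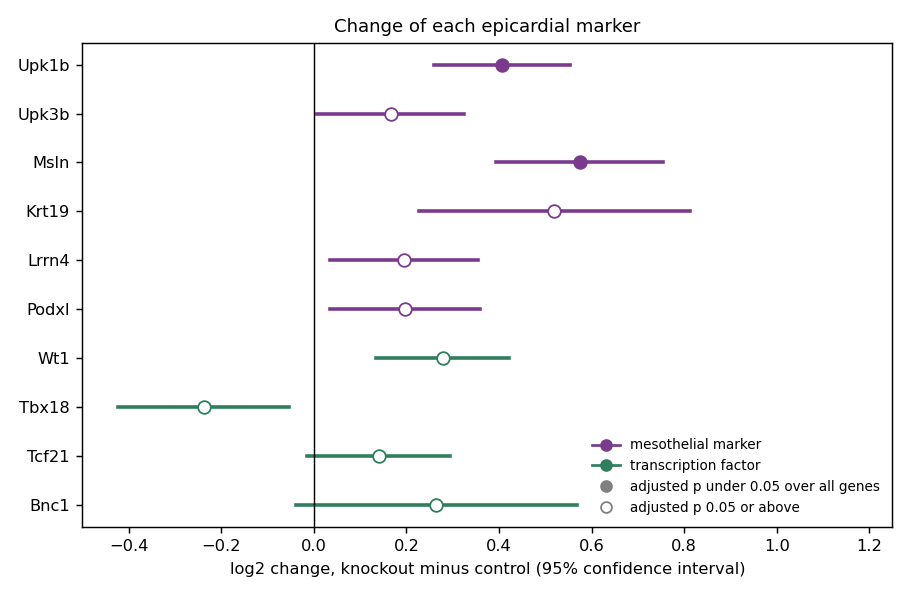
Log2 change of each marker, knockout minus control, as points with 95% confidence intervals from the limma fit, mesothelial markers above transcription factors. Filled points (Msln and Upk1b) passed an adjusted p of 0.05 over all genes, and Tbx18 at -0.24 is the point to the left of 0.

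Set against all genes, 9 of the 10 markers had a change above 0, as did 51.6% of all genes, and in 9 of the 10 the groups did not overlap (8 higher, 1 lower), as in 24.6% of all genes (14.2% higher, 10.4% lower). An unadjusted p under 0.05 was reached by 8 markers, 7 of them higher, and by 17.5% of all genes, 10.7% higher. The median change was 0.23 for the 10 markers and 0.005 over all genes. These markers were picked with earlier results of the same arrays known, so the counts describe them and are not an independent test. 

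The mesothelial and transcription factor markers were set side by side within each array. The median change was 0.30 for the 6 mesothelial markers (range 0.17 to 0.57) and 0.20 for the 4 transcription factors (range -0.24 to 0.28), so the ranges overlapped. With array weights the medians were 0.25 and 0.075. The mean of the mesothelial values was 10.74, 10.63 and 10.64 in the knockout, against 10.41, 10.30 and 10.26 in the controls, with no overlap. For the transcription factors it was 10.24, 10.04 and 10.11 in the knockout, against 10.08, 9.96 and 10.02 in the controls, and the groups overlapped. The mesothelial mean minus the transcription factor mean was 0.50, 0.58 and 0.53 in the knockout, against 0.33, 0.34 and 0.24 in the controls. That is 0.23 more in the knockout, and no test was made because the score is built from markers picked with results known. Without Tbx18 the factors lay nearer to the mesothelial markers: the mean of Wt1, Tcf21 and Bnc1 was higher in the knockout by 0.23, against 0.11 for all 4 factors and 0.34 for the mesothelial mean.

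Single pairs were also read, as a description. Wt1 minus Tbx18 was -0.38, -0.27 and -0.25 in the knockout, against -0.74, -0.93 and -0.77 in the controls, a difference of 0.52 with no overlap between the groups. In the knockout, Msln minus Tbx18 was higher by 0.81, Msln minus Wt1 by 0.30 and Upk1b minus Upk3b by 0.24, each without overlap. Wt1 minus Tcf21 was higher by 0.14 and its groups overlapped. The pairs were chosen after the values were seen, so no test is given.

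**Figure D3:**
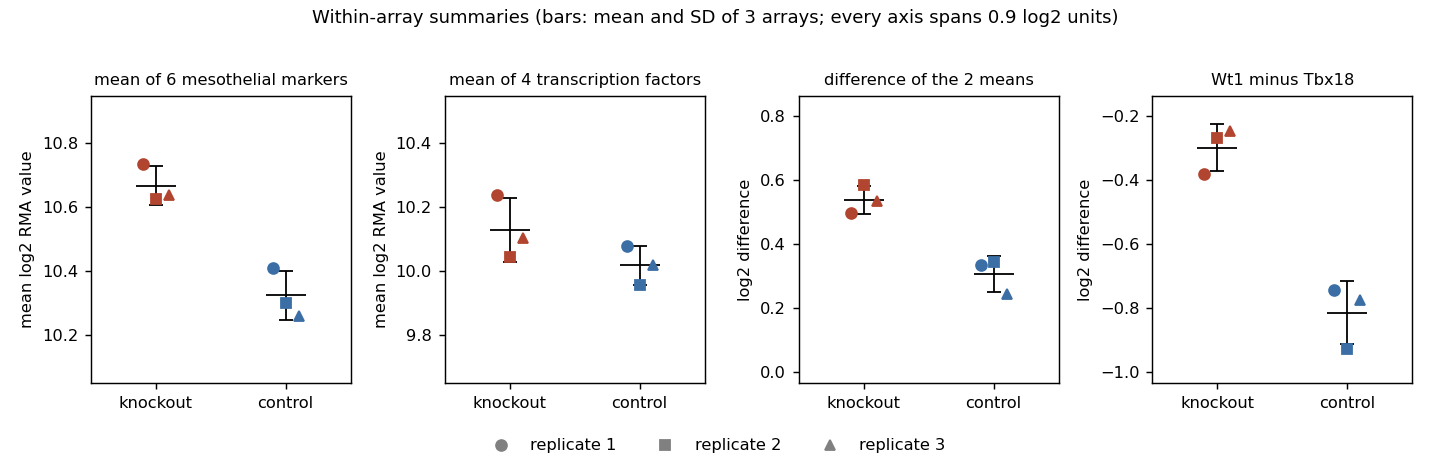
Values per array of the mesothelial mean, the transcription factor mean, their difference, and Wt1 minus Tbx18, for the 3 knockout and 3 control arrays with mean and SD and 0.9 log2 units on every vertical axis. The transcription factor means overlap between genotypes (10.04 to 10.24 in the knockout, 9.96 to 10.08 in the controls), and the other 3 measures do not.

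Other genes of the epicardium were read from lists chosen, like the markers, with earlier results known. Of 20 further surface, keratin and enzyme genes 13 were measured, 9 with a change above 0 and 4 below, and the median was 0.06. One rose past the threshold, which 0.336% of all genes passed as higher: Aldh1a1, a retinaldehyde dehydrogenase. It read 9.46, 9.25 and 9.22 in the knockout against 8.55, 8.64 and 8.47 in the controls, a change of 0.75 ± 0.08 (SE, limma adjusted p = 0.0184). Aldh1a2, the main retinoic acid synthesising enzyme of the embryonic epicardium, differed by -0.21 ± 0.17 with overlapping groups (adjusted p = 0.577). The neuronal and epicardial membrane glycoprotein Gpm6a (0.46), the matrix protein Efemp1 (0.39) and the simple epithelial keratin Krt18 (0.40) had groups that did not overlap and did not pass (limma adjusted p of 0.0538, 0.105 and 0.190 in that order). Of the 13 genes, 5 did not overlap as higher and 1 as lower, against 14.2% and 10.4% of all genes. Besides Aldh1a2, the genes below 0 were Igfbp5 (-0.13, no overlap), Cdh1 (-0.23) and Cdh3 (-0.11), both with overlap.

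None of the 10 further transcription factors of the epicardium passed, and 4 were above 0 and 6 below, with a median of -0.06. Those with the smallest p were Gata6 (-0.21 ± 0.08) and the tendon and proepicardial factor Scx (0.33 ± 0.16), with Mecom (-0.22 ± 0.10) and Gata4 (-0.13 ± 0.07), all SE. Gata4 and Gata6 are zinc finger factors of both heart muscle and epicardium. 

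Genes of EMT and of the mesenchyme derived from the epicardium had 17 measured members, 6 with a change above 0 and 11 below, and a median of -0.04. In limma 0 passed, and 3 had an unadjusted p under 0.05, all of them lower, where 6.8% of all genes reached that p as lower and 17.5% in either direction. The N-cadherin gene Cdh2 (-0.19 ± 0.06), the PDGF receptor gene Pdgfra (-0.35 ± 0.12), the collagen gene Col3a1 (-0.24 ± 0.08) and the factor Sox9 (-0.18 ± 0.08) had the smallest p (SE). The EMT factors Snai1 (0.08), Snai2 (0.02) and Twist1 (0.10) had overlapping groups. Among 21 measured signalling genes 0 passed in limma, with 2 at an unadjusted p under 0.05, both higher (10.7% of all genes), and the median was -0.0028. These were the growth factor Tgfb1 (0.29 ± 0.06) and the adhesion molecule Vcam1 (0.22 ± 0.08), followed by Tgfb3 (0.18 ± 0.10) and the chemokine gene Cxcl12 (-0.15 ± 0.08). The fibroblast growth factor gene Fgf9 differed by 0.15 and Igf2, a growth factor made by the epicardium, by -0.0028, both with overlapping groups. Igf2 read 13.89 to 13.92 on all arrays, near the highest value of the table, 14.50.

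**Figure D4:**
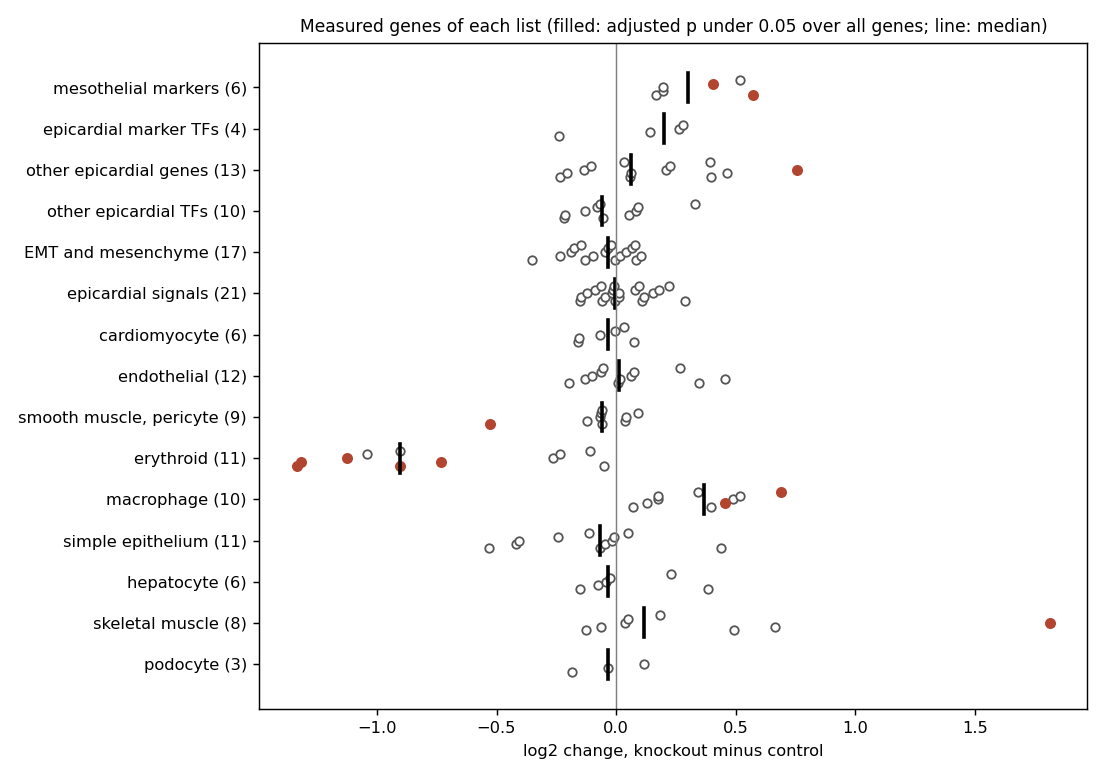
Log2 change, knockout minus control, of every measured gene of each list, with the number measured in brackets, the list median as a black line and filled points for an adjusted p under 0.05 over all genes. The mesothelial markers all lie to the right of 0 (median 0.30), EMT and mesenchyme genes centre near 0 (median -0.04), and the erythroid list has the lowest median (-0.90). The row named simple epithelium also holds genes of stratified epithelia, such as Krt5.

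Markers of other cells were read on the same arrays, because several of the 10 genes are made outside the epicardium. Each of the 11 measured erythroid genes had a change below 0, and their median was -0.90. Of these 11, 5 passed, where 0.222% of all genes passed as lower. These 5 fell: the haem synthesis enzyme Alas2 (-0.90), the anion exchanger Slc4a1 (-1.32), the membrane skeleton gene Epb42 (-1.13), Trim10 (-1.33) and the blood group gene Rhd (-0.73). Rhag (-1.04) and Ermap (-0.90) were lower without passing. The factors Klf1 (-0.05) and Gata1 (-0.23) and the globin genes Hbb-y (-0.11) and Hba-x (-0.26) differed less and did not pass. The erythroid list's mean level was 9.13 to 9.46 in the knockout and 9.88 to 10.07 in the controls. All 10 macrophage genes were higher and 2 passed, where 0.336% of all genes passed as higher. These 2 were the complement gene C1qc (0.45) and the Fc receptor gene Fcgr3 (0.69). The macrophage list means were 8.56 to 8.65 in the knockout and 8.16 to 8.34 in the controls. Since RMA sets every array to a shared distribution, these shifts sit in the same scale as the marker changes, and their part in them was not tested. Endothelial genes, which bear on Podxl, had 7 of 12 above 0 and 0 past the limma threshold. An unadjusted p under 0.05 was reached by 3, all higher (Icam2 at 0.45, Emcn at 0.35 and Egfl7 at 0.27), and by 10.7% of all genes as higher. Cd34 (-0.20) followed, and the endothelial list means were 10.86 to 10.99 in the knockout and 10.85 to 10.89 in the controls.

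Epithelial genes of lung, gut and body surface, which bear on Krt19, had 2 of 11 above 0, and list means of 6.39 to 6.57 in the knockout and 6.52 to 6.77 in the controls. None passed, and the smallest p belonged to Krt14 (0.44), Cldn6 (-0.53), Foxa1 (-0.24) and Trp63 (-0.11). All their values lay between 5.08 and 7.59, at or near the array medians or below them. The 3 measured podocyte genes, which bear on Wt1 and Podxl, had 1 above 0 and list means of 8.05 to 8.12 in the knockout and 8.07 to 8.15 in the controls. None passed, with Ptpro at -0.18, Cd2ap at 0.12 and Nphs1 at -0.03. Nphs1, which codes for the slit diaphragm protein nephrin, read 6.83 to 7.13 on all arrays, and Ptpro read 5.83 to 6.13. Cd2ap, the 1 gene above 0, read 11.28 to 11.50, far above the other members of the list. Of 12 heart muscle genes 6 were measured, 2 of them above 0 and none past the threshold, with a median of -0.04. The smallest p belonged to Mybpc3 (-0.16), Ryr2 (-0.15), Myl2 (0.07) and Tnni1 (-0.07). Tnnt2, Tnni1, Myl2 and Myl7 read 13.13 to 13.92, near the highest value of the table, 14.50. In the smooth muscle and pericyte list, with a median of -0.06, 1 of 9 passed, where 0.222% of all genes passed as lower. This was the potassium channel gene Kcnj8, which fell by 0.53. Of 8 hepatocyte genes 6 were measured, 2 of them above 0 and none past the threshold, with a median of -0.03. The smallest p belonged to Ttr (0.23), Ahsg (0.38), Fgb (-0.07) and Afp (-0.15). Of 10 skeletal muscle genes 8 were measured, 6 of them above 0, with a median of 0.12. Of these 8, 1 passed, where 0.336% of all genes passed as higher. This was the fast troponin gene Tnnt3, which rose by 1.81.

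The genes whose profile over the 6 arrays lay closest to Msln, Wt1 and Tbx18 were found by the root mean square difference between log2 values after each gene was centred on its own mean. Closest to Msln were Nostrin (0.06), Car5b (0.06) and Ruvbl1 (0.07). Closest to Wt1 were Jmjd6 (0.02), Ngrn (0.03) and Idua (0.03), and closest to Tbx18 were Nup98, Fam234b and Cnot1, each at 0.02. Shared position on these arrays says nothing of shared function or control. None of these 9 genes passed over all genes, with limma adjusted p between 0.0538 (Car5b and Ruvbl1) and 0.184 (Nup98).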

How the data were processed

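Per the labels' protocols, total RNA of 6 heart pools was put on Affymetrix arrays. The log2 values were deposited by the authors after RMA, and the submitters' processing notes name Affymetrix Expression Console for it. No version, annotation release or genome build was given in the sources used here. RMA hides a change shared by most genes. The labels call the pools biological replicates, and precision is limited by their number.

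Of 23332 rows, 14996 carried 1 symbol in the platform annotation, 1019 several and 7317 none; for genes with several rows the highest mean was kept (136 rows set aside), leaving 14860 genes without a filter on dim ones. They were compared with limma 3.58.1 (lmFit, eBayes) in R 4.3.3, knockout minus control, two-sided, with Benjamini-Hochberg adjustment over all genes and 7.46 degrees of freedom. The procedure was tested on simulated data. Errors beside levels are SDs and beside changes SEs. Members and lists were chosen with earlier results of these data known. All members were named; of each other list, those past the threshold or up to 4 with the smallest p, and any further gene was chosen after its values were seen. Alternatives were a replicate block, a robust variance trend, array weights, median centring, brighter genes, every row, the lowest probe set and each array left out. Promoter sequences are from RefSeq.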

Additional observations from a re-analysis of the deposited data

How the results depend on the processing

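Of the 13 alternatives 5 leave the estimated changes as they are and alter only the test, and in the 8 others all 10 markers kept their direction. In all markers but Bnc1 the groups did not overlap, so leaving out or weighting arrays could not reverse them. Median centring moved all changes alike, by less than the smallest of them. The kept direction is therefore no test for those markers. The counts of genes past the threshold, 50 higher and 33 lower, did not keep their size: a robust variance trend gave 119 and 84, array weights 399 and 334, brighter genes alone 267 and 149, and the replicate block 24 and 14. With every row in the fit, limma called 0 and 0 of 23332, with 2935 rows at an unadjusted p under 0.05. Leaving out 1 array gave 3 to 19 higher and 0 to 11 lower. Median centring gave 54 and 47. Msln and Upk1b passed in 5 of the 13 alternatives. The lowest probe set is among these 5, but each marker has a single probe set, so their values were unchanged there. Beside the 6 with 1 array less, Msln and Upk1b did not pass with every row (limma adjusted p = 0.183 each). Nor did they pass with the replicate block (limma adjusted p = 0.0754 for Msln, 0.119 for Upk1b). Weighting arrays added Wt1 (adjusted p = 0.0399) and Tbx18 (0.0499), and brighter genes alone added Krt19 (0.0453) and Wt1 (0.0411). The median of the mesothelial markers lay between 0.28 and 0.33 without 1 array. The median of the transcription factors was 0.075 with array weights, where Bnc1 was 0.06, and 0.14 to 0.23 without 1 array; the cause was not tested. Deviations of same-numbered arrays correlated at -0.04, 0.02 and 0.13 across genes, and those of differently numbered arrays at -0.23 to 0.22. With 3 arrays per genotype these values cannot settle whether the replicate numbers pair the arrays. With the replicate block the limma adjusted p was smaller for Krt19 (0.0651) and Bnc1 (0.188), and larger for every other marker.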

Other observations

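Replicate 1 gave the highest value of its genotype for 7 of the 10 markers among the knockout arrays and for 7 of the 10 among the control arrays. Averaged over the 10 markers, replicate 1 lay above its genotype's mean by 0.086 in the knockout and by 0.076 in the controls. Over all genes the deviations of these same 2 arrays correlated at -0.04. Knockout replicate 1 was also the highest knockout array for 14 of 17 EMT and mesenchyme genes and 10 of 11 erythroid genes. It was so for 0 of 11 genes of other epithelia and 1 of 10 macrophage genes. Control replicate 1 was the highest control array for 3, 3, 7 and 3 genes of these lists in that order. The share over all genes was not counted.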
